A study of Mus musculus with 2 samples.

Results

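Integrins and laminins, 36 genes of the 41709 in the deposited tables, were followed in whole mouse lung at stage E14.5, when the airway tree branches. The set holds 18 integrin alpha chains, 8 integrin beta chains, 5 laminin alpha chains, 3 laminin beta chains and 2 laminin gamma chains, chosen by gene symbol and matched through NCBI gene numbers. All 36 symbols were found in the tables. Polyadenylated RNA of C57BL/6 embryos was sequenced from 1 control library, which the series text calls wild type, and from 1 library labelled Prmt5 knockdown, whose title names Shh and Prmt5. Each library came from a pool of 7 lungs. The allele or reagent, the promoter and the cells in which these genes were altered are not stated in the labels. Prmt5 encodes an arginine methyltransferase that modifies histones, and the series title asks whether it controls lung branching by repressing a Bmp gene.

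Laminins are cross-shaped proteins of 1 alpha, 1 beta and 1 gamma chain that self-assemble into the sheet of the basement membrane, the matrix layer beneath epithelia and around muscle, nerve and vessels. Integrins are cell surface receptors made of 1 alpha and 1 beta chain that bind laminins, collagens, fibronectin or proteins of other cells and couple them to the actin or keratin cytoskeleton. In the branching lung the basement membrane separates the epithelial buds from the mesenchyme, and both tissues contribute laminin chains to it. A different group of integrins is carried by leukocytes and platelets, where they serve adhesion to vessel walls and clotting.

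Sequencing depth was 22581490 counted reads for the control and 25829281 for the Prmt5 knockdown library. Differences are ratios of Prmt5 knockdown over control, after scaling by the trimmed mean of M values, with a 95% interval that covers counting error only. A gene passed the rule of size when it had at least 50 reads in 1 library, a ratio of at least 1.5 in either direction and an interval that excluded 1. With 1 library per group there is no replicate check and no p-value, and "higher" and "lower" below describe these libraries. Prmt5 itself had 2704 control and 2127 knockdown reads, a log2 ratio of -0.43 (-0.51 to -0.35), which did not pass the rule. The lung markers Nkx2-1 (7550 and 895 reads) and Sftpc (8880 and 1313 reads) were present in both libraries. The libraries differed in their tissue markers. Of 12 measured lung and general epithelium markers 9 were lower and none higher (median log2 ratio -2.11, summed level 1564 and 537 normalised CPM), and all 6 lung mesenchyme markers were lower (median -1.58). All 9 heart muscle markers (median 6.39), all 8 skeletal muscle markers (median 5.32), all 8 liver markers (median 7.46), all 7 red cell markers (median 4.97) and all 10 leukocyte markers (median 1.28) were higher. In a bulk library, a different number of cells of a type and a different amount of RNA per cell cannot be told apart. Neither can be told from tissue of other organs, such as liver or heart, collected with the pooled lungs. The labels do not say whether such tissue was present.

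Of the 36 chains, 33 reached the read minimum, and 10 of these were higher and 9 lower past the rule. Among all 14569 genes that reached the minimum, 20.7% were higher and 12.3% lower, so both shares of the chains lay above the background, though no test of that difference was made. The median log2 ratio was -0.14 for the chains and -0.01 for all measured genes. None of 10 laminin chains was higher and 5 were lower (median -0.63), whereas 10 of 23 measured integrin chains were higher and 4 lower (median 0.15). Of the 10 higher integrins, 6 were leukocyte chains or the platelet pair Itga2b and Itgb3, and the other 17 integrins had 4 higher and 4 lower (median -0.14). Itga4, which leukocytes and blood progenitors also carry, was among these 4 higher chains. The difference between the families was not tested. Scaling to total counts moved every log2 ratio by -0.11 and the share of higher genes among all genes past the rule from 62.7% to 52.3%. Under it 9 chains were higher and 11 lower.

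**Figure D1:**
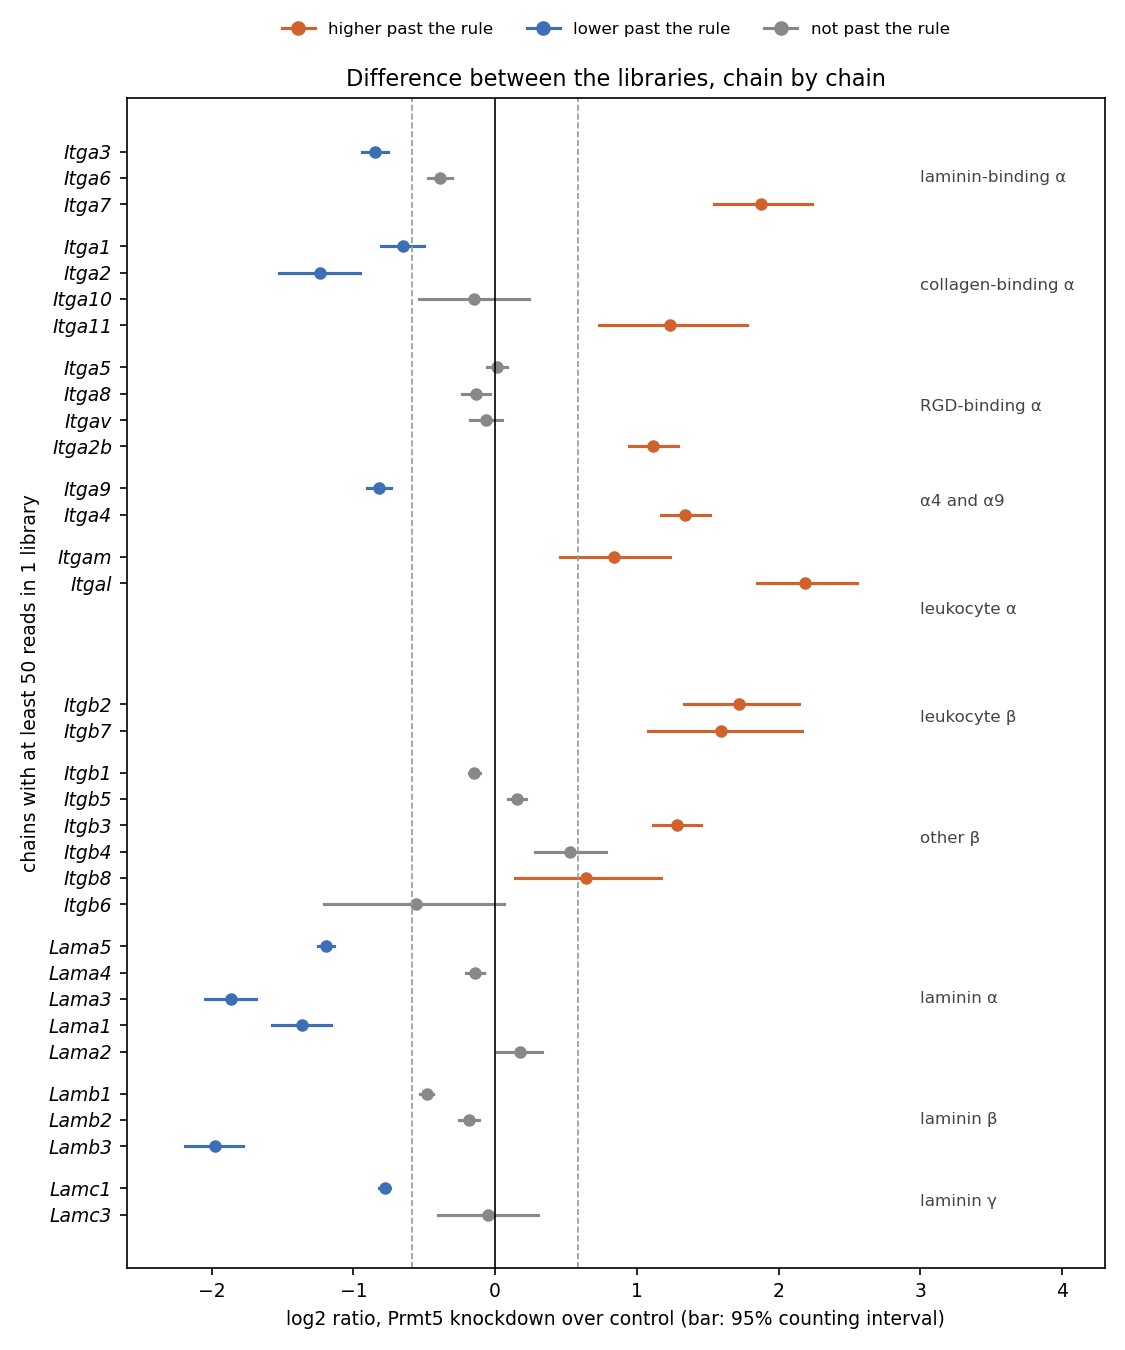
Log2 ratio of Prmt5 knockdown over control for the 33 chains with at least 50 reads in 1 library, grouped by role. Points are ratios, bars the 95% counting intervals, and dashed lines the ratio of 1.5 in each direction; all 5 lower laminin chains lie to the left and all 4 measured leukocyte chains to the right.

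Levels per gene length were led by the same few chains in both libraries. Itgb1, the beta chain shared by most matrix-binding integrins, stood first with a deposited FPKM of 134 in the control against 112 in the knockdown library. In the control it was followed by Lamc1 (78.0), Lamb1 (72.9), Itgb5 (48.6), Lama5 (35.6), Itga5 (32.0) and Lama4 (31.1). In the knockdown library Itgb5 (50.04) took rank 2, Lamb1 (48.3) rank 3, Lamc1 (42.1) rank 4 and Lama5 (14.4) rank 8. Differences between neighbouring ranks carry no spread between samples. At the bottom were Itgad, with 2 reads in each library, Itgax with 5 and 11, and Itgae with 34 and 24, alpha chains of leukocytes that stayed under the read minimum. Gene lengths implied by the FPKM table ran from 0.280 times the annotated exons for Itgb8 to 1.42 times for Itgae, so the levels of such genes depend on the length the authors used.

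**Figure D2:**
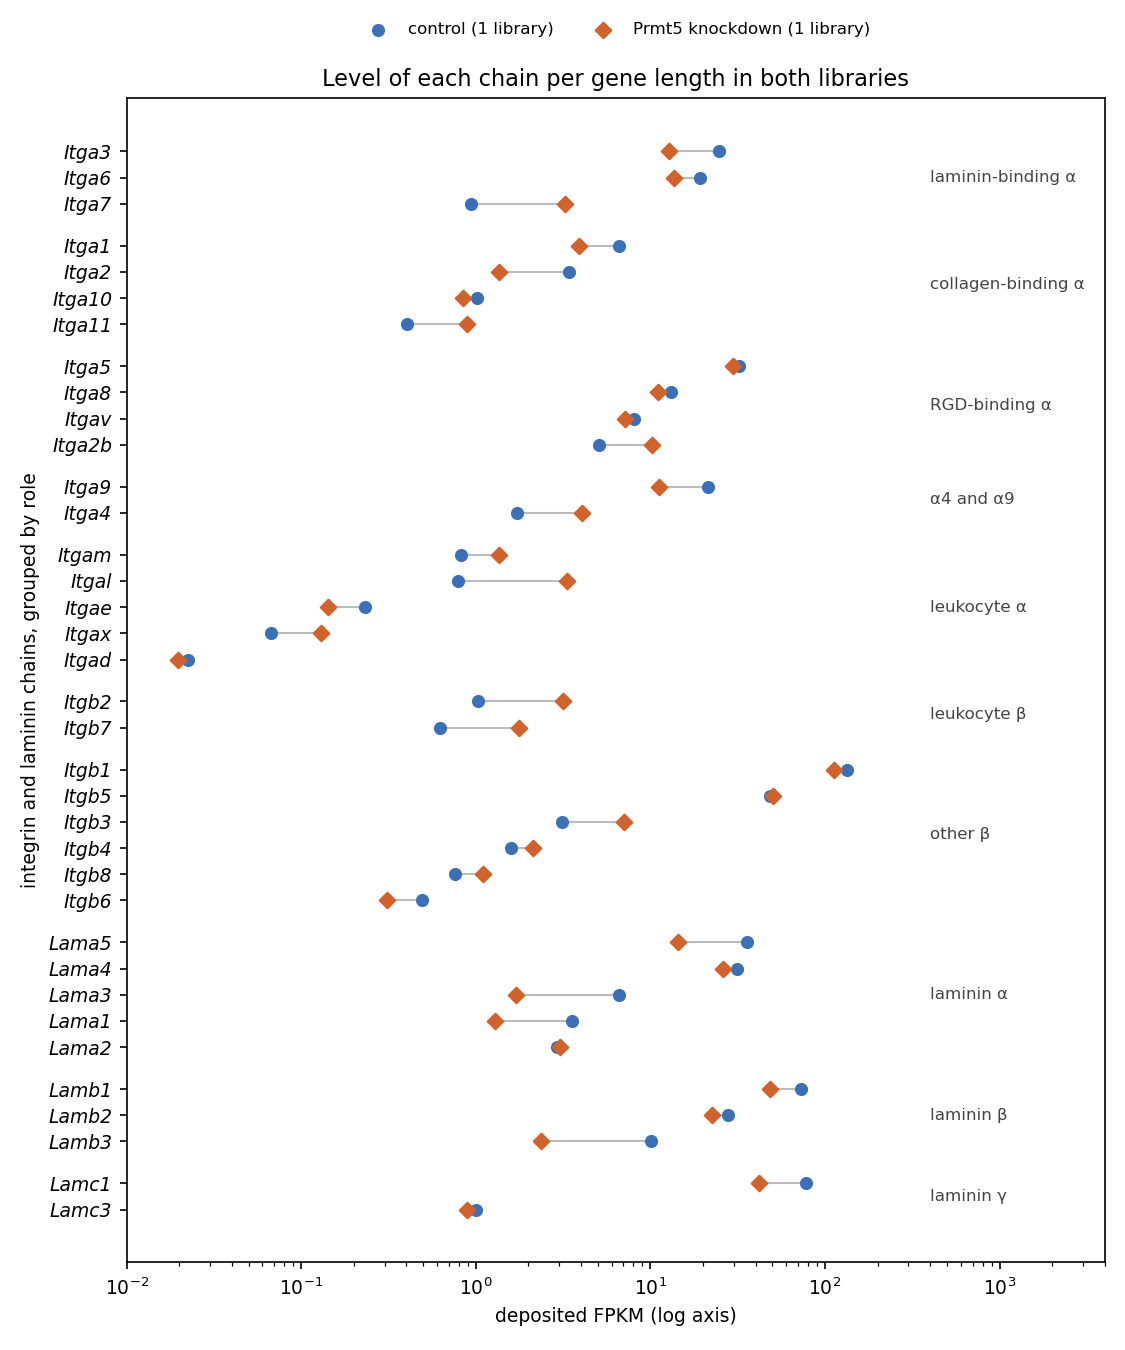
Deposited FPKM of all 36 chains on a log axis, with circles for the control library and diamonds for the Prmt5 knockdown library, grouped by role. Itgb1 is the highest chain in both libraries (134 and 112), and Itgad the lowest.

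Laminin alpha chains, which carry the globular domains that integrins bind, showed the widest spread within the laminins. Lama5 (NCBI gene 16776, chromosome 2, 180176373 to 180225904, minus strand) encodes the alpha-5 chain, the main alpha chain of most epithelial basement membranes. It had 8341 control and 3870 knockdown reads and was 2.28-fold lower (log2 -1.19, -1.25 to -1.14). Lama3, on chromosome 18, encodes the alpha chain of the anchoring laminin of skin and airway epithelium. Its reads numbered 1132 and 330, and it was 3.63-fold lower (log2 -1.86, -2.04 to -1.68). Lama1 (chromosome 17, 67697127 to 67822645) encodes the chain of the earliest embryonic basement membranes and had 644 control and 265 knockdown reads and was 2.57-fold lower (log2 -1.36, -1.58 to -1.16). The other 2 alpha chains did not pass the rule. Lama4, found in the basement membranes of vessels and mesenchyme, had 4249 and 4081 reads (log2 -0.14, -0.20 to -0.08). Lama2, the alpha chain of muscle and peripheral nerve, had 601 and 718 reads (log2 0.17, 0.01 to 0.33). Lama5 and Lama4 were of similar level per length in the control, 35.6 and 31.1 FPKM. In the knockdown library Lama4 stood at 26.1 and Lama5 at 14.4. Summed over the 5 genes, laminin alpha chains stood at 79.8 FPKM in the control against 46.6 in the knockdown library. Lama4 made up 39.0% of that sum in the control against 56.1% in the knockdown library, while Lama5 went from 44.6% to 31.0% and Lama3 from 8.31% to 3.63%. The share of Lama2 was 3.66% and 6.54%.

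Of the beta chains only the epithelial one passed the rule, and of the gamma chains only the widespread one. Lamb3 (NCBI gene 16780, chromosome 1, 193294353 to 193343878), the partner of the alpha-3 chain in the anchoring laminin of epithelia, had 912 control and 245 knockdown reads and was 3.94-fold lower (log2 -1.98, -2.19 to -1.78). No other chain had a lower ratio. Lamb1, the beta chain of most embryonic laminins, had 9374 and 7110 reads (log2 -0.48, -0.53 to -0.44). It did not pass the rule with the main scaling and passed it as lower under total counts and under FPKM with a pseudocount of 0.1 (both log2 -0.59). Lamb2, a beta chain of muscle, nerve and kidney basement membranes, had 3516 and 3282 reads (log2 -0.18, -0.25 to -0.11). As a share of the 3 beta chains, Lamb1 was 65.9% in both libraries, Lamb2 25.0% and 30.8%, and Lamb3 9.10% and 3.23%. Lamc1 (NCBI gene 226519, chromosome 1, 153218922 to 153332786), the gamma chain of nearly all laminins outside the epithelial anchoring form, had 13417 control and 8287 knockdown reads and was 1.72-fold lower (log2 -0.78, -0.82 to -0.74). Lamc3, a rarer gamma chain, had 134 and 137 reads (log2 -0.05, -0.41 to 0.30). Of the summed FPKM of these 2 gamma chains, Lamc1 held 98.7% and 97.9%.

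**Figure D3:**
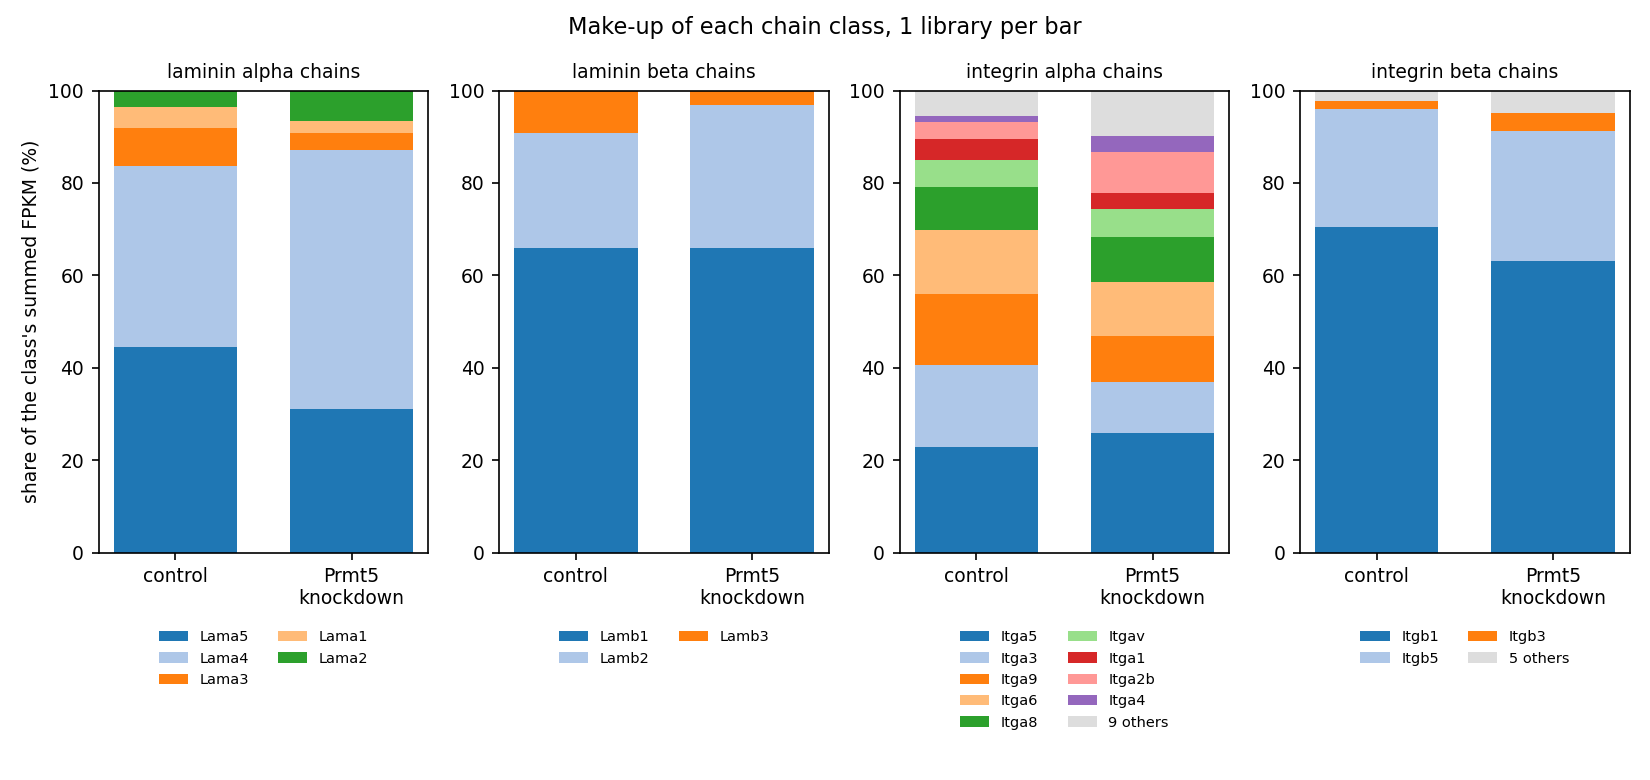
Share of each gene in the summed deposited FPKM of its chain class, 1 library per bar, with genes under 3% in both libraries joined as others. Lama4 takes the place of Lama5 as the largest laminin alpha chain (39.0% and 56.1%), and Lamb3 goes from 9.10% to 3.23% of the beta chains.

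The chains of 1 laminin trimer were unequal in level. For the trimer of Lama1, Lamb1 and Lamc1, the alpha chain was the lowest at 3.57 FPKM in the control against 1.28 in the knockdown library. The highest chain exceeded it 21.9-fold in the control against 37.7-fold in the knockdown library. The trimer of Lama5, Lamb1 and Lamc1 was closer to balance, at 2.19-fold and 3.35-fold, with Lama5 the lowest chain in both. For Lama4 with the same partners the values were 2.50-fold and 1.85-fold. In these 3 trimers the alpha chain was the lowest, whereas with Lamb2 in place of Lamb1 beside Lama5 and Lamc1, Lamb2 was the lowest in the control (27.7 FPKM) and Lama5 in the knockdown library (14.4 FPKM). These are levels of RNA, and no protein was measured.

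The promoters of Lama5 and Lamb3 are shown because they belong to lower chains that differ in make-up: Lama5 has a promoter of 72.7% G and C with repeated GC boxes and Lamb3 one of 59.3%. Sequences run from 250 bases before to 50 bases after an annotated start, on the gene's strand, from RefSeq on GRCm38.p6, at chr2:180225810-180226109 (minus strand) for Lama5 and chr1:193301744-193302043 (plus strand, the first of the starts listed) for Lamb3. Capitals mark matches, on either strand, to AGATAA (bound by GATA factors), GAGGAA (PU.1 and other ETS factors), GGGCGG (the GC box), TATAAA (the TATA box), TGANTCA (AP-1), TGTTTAC (forkhead factors) and CAAGTG (NKX2-1). These motifs were chosen with the values known.
Lama5: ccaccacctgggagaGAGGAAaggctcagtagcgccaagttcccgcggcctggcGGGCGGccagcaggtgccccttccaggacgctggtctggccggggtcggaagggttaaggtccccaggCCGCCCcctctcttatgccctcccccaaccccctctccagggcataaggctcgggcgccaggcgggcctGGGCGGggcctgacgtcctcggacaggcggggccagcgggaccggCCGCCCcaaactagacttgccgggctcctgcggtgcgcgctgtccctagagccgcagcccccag
Lamb3: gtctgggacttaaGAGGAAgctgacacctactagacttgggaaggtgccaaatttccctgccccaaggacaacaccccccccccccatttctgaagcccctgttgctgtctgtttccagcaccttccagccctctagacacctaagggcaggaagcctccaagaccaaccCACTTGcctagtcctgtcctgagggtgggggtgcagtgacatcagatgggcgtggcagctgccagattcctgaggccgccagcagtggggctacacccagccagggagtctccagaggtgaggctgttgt
Lama5 held 4 matches to GGGCGG or its complement, starting at positions -196, -128, -59 and -14 from the start, and 1 to GAGGAA at -235. Lamb3 held GAGGAA at -237 and the complement of CAAGTG at -80. GGGCGG was present in 35.7% of all 32851 promoters of the same length, GAGGAA in 28.3% and CAAGTG in 13.6%. A match describes the letters only.

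Laminin receptors went in different directions. Itga3 (NCBI gene 16400, chromosome 11, 95044475 to 95076844), the alpha chain of the main laminin receptor of lung and kidney epithelium, had 2625 control and 1548 knockdown reads and was 1.80-fold lower (log2 -0.85, -0.94 to -0.75). Itga6, an alpha chain of epithelium, endothelium and neural crest cells, had 2577 and 2086 reads (log2 -0.39, -0.47 to -0.31) and did not pass the rule. Itgb4, which pairs with the alpha-6 chain in hemidesmosomes and has a long cytoplasmic tail, had 221 and 338 reads (log2 0.53, 0.28 to 0.78), also short of the rule. Its longest coding sequence, 5454 bases, compares with 2394 for Itgb1. In the control Itga6 stood 12.2-fold above Itgb4 in FPKM, and 6.44-fold above it in the knockdown library. Itga7 (NCBI gene 16404, chromosome 10, 128933421 to 128958286), the laminin receptor chain of skeletal and heart muscle, went from 90 to 352 reads, 3.67-fold higher (log2 1.88, 1.55 to 2.23). In the same library the summed level of 9 heart muscle markers was 4598 normalised CPM against 102, and that of 8 skeletal muscle markers 899 against 25.5, with no marker of either list at 0. Of the stratified epithelium markers, 6 of 6 measured were higher (median 1.97, summed level 40.3 and 168), among them Krt5 (3.54), Krt14 (3.35), Krt17 (1.97) and Krt15 (1.91). The higher share of all measured genes was 20.7%. Krt14 (16 and 178 reads) and Trp63 (41 and 171) reached the read minimum only in the knockdown library, which allowed no other call than higher. The part of these tissues in the values of Itga7 and Itgb4 was not tested.

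The lower laminin and laminin receptor chains stood beside lower markers of lung epithelium and lung mesenchyme. Nkx2-1, the lineage factor of lung epithelium, had a log2 ratio of -3.16, Epcam -2.36 and Foxa1 -2.26. The ratios of Lamb3 (-1.98) and Lama3 (-1.86) were nearest to these, and those of Lama5, Itga3 and Lamc1 were smaller in size. Elf3 (-0.98) and Cdh1 (-0.92), lower markers of the same list, were nearer to Lama5 (-1.19), Itga3 (-0.85) and Lamc1 (-0.78). Lung mesenchyme markers ran from Tbx4 (-2.06) to Tcf21 (-0.76), a range that held all 5 of these chains. Other epithelial genes did not pass the rule, with Krt8 at -0.12, Krt18 at 0.11 and Krt19 at 0.21. None of the epithelium markers was at 0 in either library. The part of the epithelium and of the mesenchyme in the values of these chains was not tested.

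**Figure D4:**
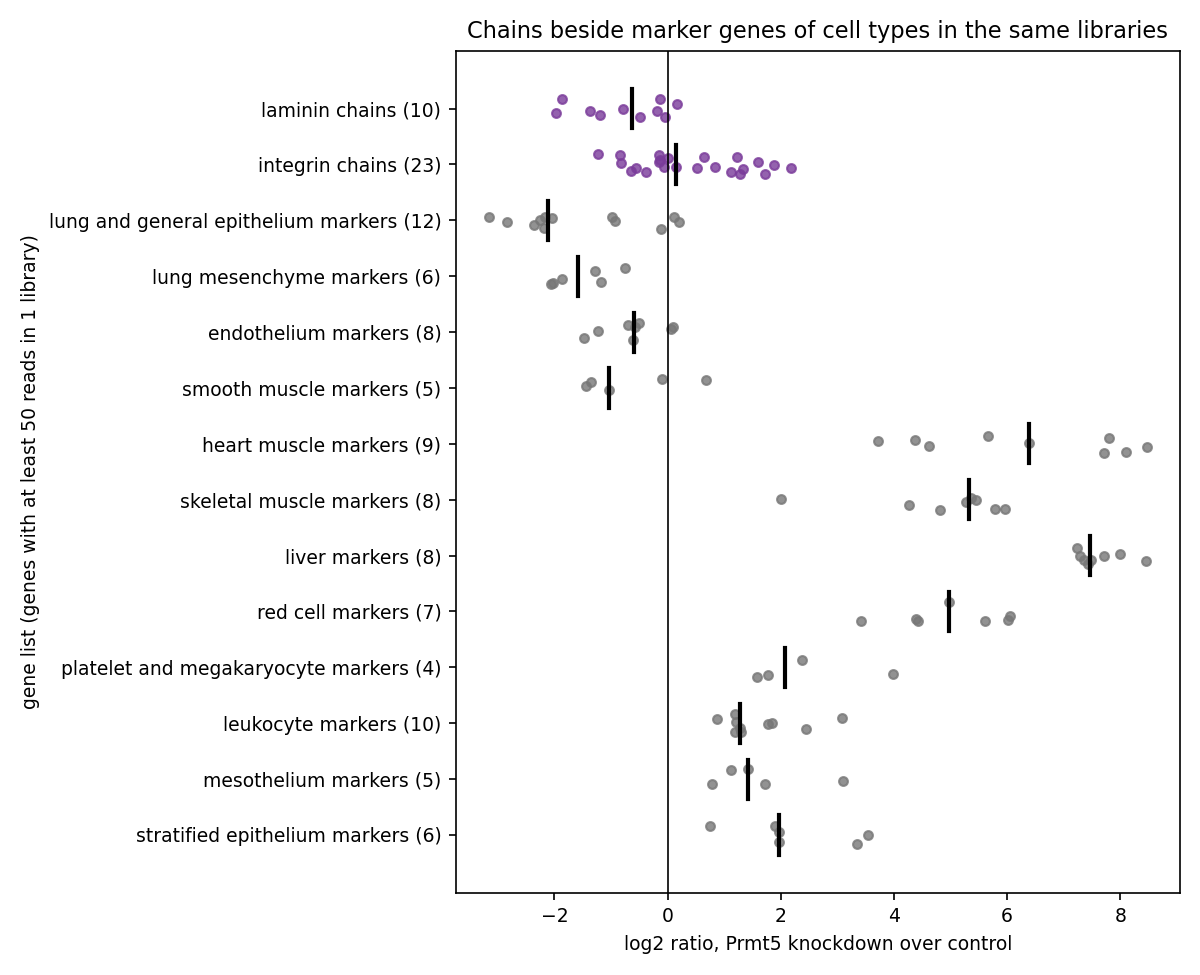
Log2 ratio of Prmt5 knockdown over control for the measured laminin and integrin chains and for marker genes of cell types, 1 point per gene, with a vertical bar at each list's median and the number of genes in brackets. The laminin median (-0.63) lies on the side of the epithelium (-2.11) and lung mesenchyme (-1.58) markers, and the muscle, liver and red cell markers reach values above those of any chain.

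Collagen receptors, whose alpha chains carry an inserted domain and pair with the beta-1 chain, were likewise mixed. Itga2, a collagen receptor of epithelia and platelets, had 327 control and 147 knockdown reads and was 2.35-fold lower (log2 -1.23, -1.53 to -0.95). Itga1, found on smooth muscle, vessels and mesenchyme, had 890 control and 601 knockdown reads and was 1.57-fold lower (log2 -0.65, -0.80 to -0.50). These neighbours on chromosome 13 lie 26.0 kb apart. Itga11, a fibrillar collagen receptor of fibroblasts, had 45 control and 113 knockdown reads and was 2.35-fold higher (log2 1.24, 0.73 to 1.78). It reached the read minimum only in the library where it was higher, and lost the call under FPKM with a pseudocount of 1 (log2 0.43). Itga10, a collagen receptor of cartilage, had 115 and 110 reads (log2 -0.15, -0.54 to 0.24), and 33.5% of its annotated exons are shared with the same-strand gene Gm42957. By level per length the order in the control was Itga1 (6.59 FPKM), Itga2 (3.43), Itga10 (1.01) and Itga11 (0.404). In the knockdown library Itga1 (3.89) and Itga2 (1.35) still led, with Itga11 (0.886) and Itga10 (0.845) close together.

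Receptors of fibronectin and other proteins with the RGD motif differed little, apart from the platelet chain described below. Itga5, the fibronectin receptor chain, had 3205 and 3424 reads, a log2 ratio of 0.01 (-0.06 to 0.08) whose sign turned under FPKM and under total counts, with or without red cell and mitochondrial genes. Itgav, which pairs with several beta chains, had 1312 and 1330 reads (log2 -0.06, -0.18 to 0.05). Itga8, the nephronectin receptor chain of mesenchyme, had 1661 and 1602 reads (log2 -0.14, -0.24 to -0.04). Among the beta partners, Itgb1 had 12667 and 12133 reads (log2 -0.15, -0.18 to -0.11) and Itgb5 3584 and 4224 (log2 0.15, 0.09 to 0.22). These 5 chains were among the best counted, and their intervals were narrow and short of the rule. The alpha-V partners that activate latent TGF-beta were scarce. Itgb6, an epithelial chain, had 53 and 38 reads (log2 -0.56, -1.20 to 0.06) and its interval included no difference. It passed the rule as lower under total counts (log2 -0.67). Itgb8 had 53 control and 88 knockdown reads and was 1.56-fold higher (log2 0.64, 0.14 to 1.17), a call that was lost under total counts, with or without red cell and mitochondrial genes, under FPKM at either pseudocount, with a 99% interval and with a ratio of 2. Itgav exceeded Itgb6 in FPKM 16.4-fold in the control against 23.2-fold in the knockdown library.

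Itga9 and Itga4, relatives that bind tenascin, osteopontin and vascular adhesion molecules, differed in direction. Itga9 (NCBI gene 104099, chromosome 9, 118606709 to 118901003), present in smooth muscle, lymphatic vessels and airway, had 2992 control and 1801 knockdown reads and was 1.76-fold lower (log2 -0.82, -0.90 to -0.73). Itga4 (NCBI gene 16401, chromosome 2, 79255426 to 79333114), a chain of leukocytes, blood progenitors and parts of the embryonic mesenchyme, had 383 control and 1027 knockdown reads and was 2.53-fold higher (log2 1.34, 1.17 to 1.51). In FPKM, Itga9 stood at 21.4 and 11.3 and Itga4 at 1.73 and 4.04. Smooth muscle markers were lower for 3 of 5 measured genes, Myh11 (-1.43), Mylk (-1.36) and Actg2 (-1.04), and higher for Cnn1 (0.68). Their summed level was 1466 and 996 normalised CPM, and Tagln was listed at 0 in the control. Endothelium markers had 4 of 8 lower and none higher (median -0.59, summed level 802 and 524, none at 0), led by Sox17 (-1.47) and Robo4 (-1.22). The part of these cells in the value of Itga9 was not tested.

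The fibrinogen receptor of platelets, formed by the products of Itga2b and Itgb3, was higher in both chains. Itga2b (NCBI gene 16399, chromosome 11, 102453297 to 102469883, minus strand), an early marker of the megakaryocyte lineage, had 396 control and 909 knockdown reads and was 2.16-fold higher (log2 1.11, 0.94 to 1.29). Itgb3 (NCBI gene 16416, chromosome 11, 104608000 to 104670476), which also pairs with the alpha-V chain outside platelets, had 407 control and 1049 knockdown reads and was 2.43-fold higher (log2 1.28, 1.12 to 1.45). The genes lie 2.14 Mb apart on chromosome 11. Their levels per length were near each other in both libraries, 5.10 and 3.11 FPKM in the control and 10.2 and 7.01 in the knockdown library. Itga2b stood 1.64-fold and 1.46-fold above Itgb3. All 4 measured platelet and megakaryocyte markers were higher (median 2.08), among them Nfe2 (3.98), Gp9 (2.38) and Gp6 (1.59), and 3 of the 4 reached the read minimum in the knockdown library alone. The other 5, Ppbp, Pf4, Treml1, Gp1bb and Gp1ba, stayed under the read minimum, and none of the 9 was at 0. The summed level of the list was 8.01 and 81.3 normalised CPM. Red cell markers, some of which megakaryocytes share, summed to 94.3 and 2234, led by Hemgn (6.05), Rhag (6.02), Klf1 (5.60) and Gata1 (4.97). The part of these blood cells in the values of Itga2b and Itgb3 was not tested.

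Leukocyte integrins were higher in each of the 4 chains that could be measured. Itgal (NCBI gene 16408, chromosome 7, 127296139 to 127335137), the alpha chain of the lymphocyte receptor for ICAM proteins, had 84 control and 407 knockdown reads and was 4.55-fold higher (log2 2.19, 1.85 to 2.55). No other chain had a higher ratio. Itgb2 (NCBI gene 16414, chromosome 10, 77530329 to 77565708), the beta chain it shares with some other alpha chains of leukocytes, had 66 control and 232 knockdown reads and was 3.30-fold higher (log2 1.72, 1.33 to 2.15). Itgb7, the beta chain of gut-homing lymphocytes, had 39 control and 126 knockdown reads and was 3.02-fold higher (log2 1.60, 1.08 to 2.16), and it reached the read minimum only in the library where it was higher. Itgam (NCBI gene 16409, chromosome 7, 128062640 to 128118491), the complement receptor chain of macrophages and neutrophils, had 87 control and 165 knockdown reads and was 1.78-fold higher (log2 0.84, 0.46 to 1.23). It lost the call under FPKM with a pseudocount of 1 (log2 0.38) and with a ratio of 2. Of its annotated exons, 68.7% are shared with the same-strand gene Gm49368. Itgal stood 1.30-fold below Itgb2 in FPKM in the control (0.791 and 1.03) and 1.06-fold above it in the knockdown library (3.35 and 3.17). Itgam, Itgax and Itgad sit side by side on chromosome 7, 11.04 and 23.28 kb apart, and of these only Itgam reached the read minimum. Itgax had a log2 ratio of 0.99 with an interval of -0.59 to 2.93.

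All 10 leukocyte markers were higher in the same library, and none was at 0. They ran from Csf1r (0.88), the macrophage growth factor receptor, to Laptm5 (3.08), with Cd74 (2.45), the pan-leukocyte phosphatase Ptprc (1.84) and Cd53 (1.77) between them. Their summed level was 142 and 334 normalised CPM. Thymocyte markers were low in the control, and 4 of the 5 that reached the read minimum did so in the knockdown library alone, where the filter allowed them no other call than higher. Cd3g had 0 and 230 reads, Cd3d 0 and 70, Ptcra 0 and 50 and Rag1 4 and 187, while Cd8a was at 0 in both, and Lck had 56 and 159 (log2 1.41). The list summed to 2.98 and 30.0 normalised CPM. The ratios of Itgal, Itgb2 and Itgb7 lay within the range of the leukocyte markers and that of Itgam just below it. The top of that range was set by Laptm5 (20 and 183 reads) and Cd74 (45 and 263). Both reached the read minimum in the knockdown library alone, where the filter likewise allowed only the call higher. Apart from these, the highest marker was Ptprc (1.84), and Itgal (2.19) lay above it. The part of leukocytes and thymocytes in these values was not tested.

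The promoters of Itga2b, Itga4, Itgam and Itgb7 are shown as those of the higher chains of blood cells that the RefSeq table lists, at chr11:102469834-102470133 (minus strand), chr2:79255176-79255475 (plus strand), chr7:128062390-128062689 (plus strand) and chr15:102231886-102232185 (minus strand) of GRCm38.p6. The capitals mark the same motifs as above.
Itga2b: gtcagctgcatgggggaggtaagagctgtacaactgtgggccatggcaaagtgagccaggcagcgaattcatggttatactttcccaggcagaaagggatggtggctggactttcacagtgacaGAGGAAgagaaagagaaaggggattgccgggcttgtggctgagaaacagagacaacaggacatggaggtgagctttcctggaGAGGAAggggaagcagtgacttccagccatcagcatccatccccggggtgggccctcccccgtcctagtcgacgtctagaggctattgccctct
Itga4: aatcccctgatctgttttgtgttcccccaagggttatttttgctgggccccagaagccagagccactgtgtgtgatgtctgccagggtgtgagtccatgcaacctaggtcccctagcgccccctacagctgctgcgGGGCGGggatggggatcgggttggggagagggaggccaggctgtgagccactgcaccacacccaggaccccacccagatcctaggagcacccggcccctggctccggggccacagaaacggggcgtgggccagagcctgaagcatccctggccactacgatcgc
Itgam: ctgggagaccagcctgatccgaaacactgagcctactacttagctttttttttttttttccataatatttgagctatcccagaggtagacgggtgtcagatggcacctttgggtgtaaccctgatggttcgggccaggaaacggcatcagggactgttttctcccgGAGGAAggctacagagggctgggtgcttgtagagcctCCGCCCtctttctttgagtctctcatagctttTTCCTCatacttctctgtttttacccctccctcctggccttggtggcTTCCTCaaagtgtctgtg
Itgb7: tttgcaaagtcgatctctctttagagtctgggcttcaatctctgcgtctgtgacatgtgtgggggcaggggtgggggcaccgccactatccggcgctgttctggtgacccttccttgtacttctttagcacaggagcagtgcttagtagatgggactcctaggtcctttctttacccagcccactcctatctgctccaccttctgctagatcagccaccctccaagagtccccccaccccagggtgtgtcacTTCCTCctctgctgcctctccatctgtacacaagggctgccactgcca
GAGGAA or its complement stood at -126 and -44 in Itga2b, at -84, -15 and 33 in Itgam, and at 3 in Itgb7, and was not found in Itga4, which held GGGCGG at -114. Itgam also held the complement of GGGCGG at -47. AGATAA was found in none of the 4. The table had 26 promoters for 23 of the 36 chains, and 14 of these 26 (53.8%) held GAGGAA, beside 28.3% of all promoters. They belonged to lower chains such as Itga3, Lama5 and Lamb3 as well as higher ones, and the difference in share was not tested. TATAAA was found in none of the 26 and in 13.6% of all promoters.

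Other components of the basement membrane had more lower than higher genes, as the laminins did. Of 12 measured, 7 were lower and none higher (median log2 ratio -0.60), beside 12.3% lower and 20.7% higher among all measured genes. Col4a4 (-1.95) and Col4a3 (-1.36), collagen IV chains of the mature lung and kidney, were lower together with the ubiquitous chains Col4a1 (23255 and 14496 reads, log2 -0.77) and Col4a2 (-0.62). The laminin-binding linker Nid1 was lower (-0.63) and its relative Nid2 had a log2 ratio of 0.08. Agrn (-0.59) and Col4a6 (-0.67) were the other lower genes.

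Ligands of integrins outside the basement membrane went the other way for 7 of 13 genes, with 2 lower (median 0.77). Among all measured genes 20.7% were higher and 12.3% lower. Of the higher ligands, Vtn, Spp1 and Madcam1 reached the read minimum only in the knockdown library. For these the filter allowed no other call than higher. The difference from the shares of all measured genes was not tested. Vtn, a plasma protein made in liver, had 32 and 5060 reads (log2 7.20), beside the liver markers named above, whose summed level was 55.1 and 10133 normalised CPM. Postn (2.31), Spp1 (2.27) and the elastic fibre protein Fbln5 (1.26) were higher as well, and so was fibronectin, Fn1 (15686 and 28355 reads, log2 0.77). Cdh1, the epithelial cadherin bound by the leukocyte chain of Itgae, was lower (-0.92), and so was Fbln1 (-0.59). The part of liver and other tissues in these values was not tested.

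Adaptors that link integrin tails to actin had 5 of 21 higher and 3 lower (median -0.19). These shares were near those of all measured genes, 20.7% higher and 12.3% lower. The higher gene Lims2 (42 and 98 reads) reached the read minimum only in the knockdown library. The higher genes Fermt3 (356 and 1564 reads, log2 2.05) and Parvg (52 and 338 reads, log2 2.61) are the kindlin and parvin of blood cells. Their relatives of other cells, Fermt2 (-0.27) and Parva (-0.23), did not pass the rule, and Parvb was higher (0.98). The talin Tln2, mainly of muscle and brain, was higher (0.75), and Tln1 (-0.20) did not pass. The kinase Src (-0.83), the tensin Tns3 (-0.83) and the actinin Actn1 (-0.73) were lower. Core adaptors with many reads, such as Vcl (0.01), Pxn (-0.20) and Ilk (0.26), stayed short of the rule. Of the 4 hemidesmosome genes only Dst passed (0.67, higher), with Col17a1 at 0.11, Cd151 at 0.10 and Plec at -0.22.

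**Figure D5:**
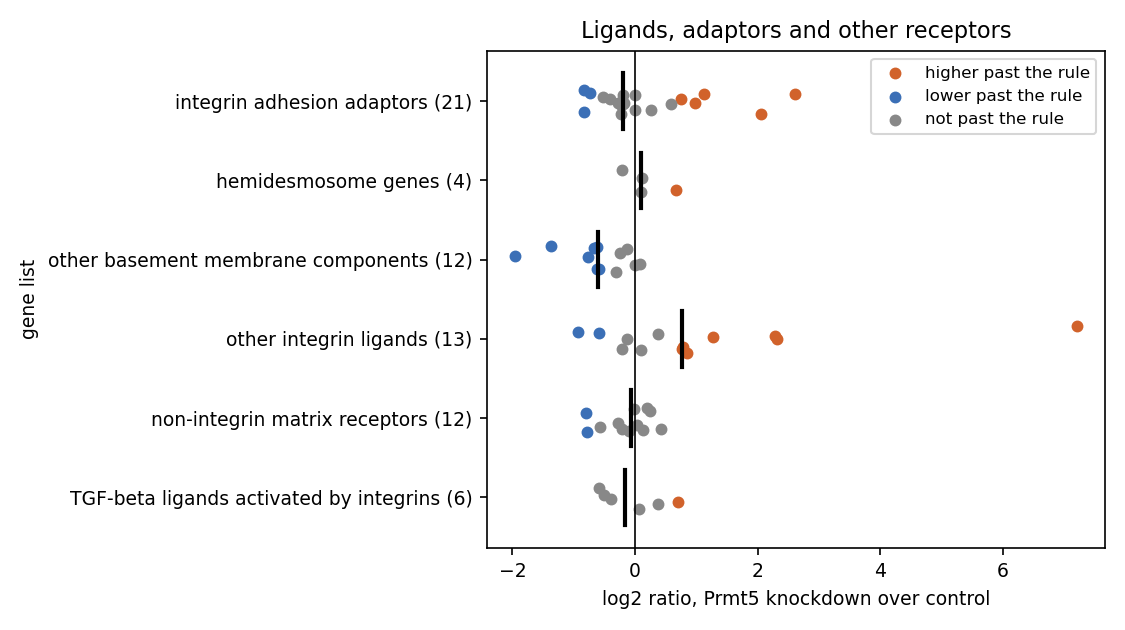
Log2 ratio of Prmt5 knockdown over control for genes that work with the integrin and laminin chains, 1 point per gene, coloured by whether it passed the rule, with a vertical bar at each list's median. Other basement membrane components lie mostly below 0 (median -0.60) and other integrin ligands mostly above it (median 0.77), with Vtn at 7.20.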

How the data were processed

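Whole-lung polyadenylated RNA was extracted with TRIZOL and made into libraries with the NEBNext Ultra kit, as the labels' protocols state. HTSeq 0.6.1, TopHat2 2.0.12 and Bowtie2 2.2.3 are listed with build mm10 in the submitters' processing notes. The strand setting, annotation and treatment of multi-mapping reads were not given in the sources used here. Hence reads of overlapping genes and of similar paralogs are uncertain. The authors deposited raw read counts per gene and FPKM values for the same 41709 genes. The deposited FPKM equalled the count per gene length and library total: the implied lengths were whole within 0.001 bp in 100% of 22831 genes with reads in each library, so FPKM adds only the lengths.

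Of all entries, 40269 matched a RefSeq gene of GRCm38.p6, the assembly mm10 stands for. Exons and coding lengths came from GENCODE for GRCm38. Counts were scaled by the trimmed mean of M values in edgeR 4.0.16 under R 4.3.3 (control factor 1.04, knockdown factor 0.963). Log2 ratios used a prior count of 0.5, and intervals were exact Clopper-Pearson intervals of the counts given their sum (scipy 1.17.1). PCR copies are not independent molecules, so intervals cover counting error only. CPM values are scaled counts per 1e6 reads, computed here from the deposited counts. Levels of different genes were compared by FPKM, and differences by scaled counts. The scripts were tested on simulated data.

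The chains, the gene lists and the rule of size were chosen with earlier results of these data known. Every chain was named. From each other list, genes past the rule were named by the interval bound nearest to 1, usually up to 4, and some further genes were named after their values were seen. A gene counted in a list may be not reported here by name. The 14 alternatives changed the scaling (DESeq2 1.42.0 size factors, total counts and others), prior count, FPKM, read minimum, ratio and interval.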

Additional observations from a re-analysis of the deposited data

How the results depend on the processing

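Under the 14 alternatives, 440 of 460 values of single chains kept their side of the rule, 436 of them with the same sign (the exceptions are Itga5 under 4 settings of scaling and FPKM), 13 lost the call, 7 gained it and none of the chains past the rule changed sign. Of the 19 chains past the rule, 12 passed it under every alternative that kept them, and Itga1, Itga3, Itga9, Itga11, Itgam, Itgb8 and Lamc1 did not. A minimum of 200 reads, which tests fewer genes, left 6 higher chains in place of 10 and 1956 higher genes in place of 3020. A ratio of 2 left 5 lower chains in place of 9 and 703 lower genes in place of 1795, and a ratio smaller than the main one gave 3560 lower genes. Total counts added Lamb1 (-0.59) and Itgb6 (-0.67) to the lower chains. Depth limits the chains with few reads, such as Itgb6, Itgax and Itgad, whose intervals are wide and include no difference. No paired analysis was possible because each group has 1 library, and for the same reason no replicate could be left out.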

Other observations

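Receptors of the matrix other than integrins had lower genes only past the rule, beside 20.7% higher and 12.3% lower of all measured genes. Of 12 measured, none was higher and 2 were lower (median log2 ratio -0.06), the collagen receptor Ddr2 (2669 and 1624 reads, log2 -0.80) and the syndecan Sdc2 (2656 and 1644 reads, log2 -0.78). Dag1, the laminin receptor dystroglycan, had 5223 and 5460 reads (log2 -0.02), and the alpha-5 laminin receptor Bcam had 5994 and 5487 (log2 -0.21). Among 6 genes of latent TGF-beta, the cargo of the alpha-V integrins, the surface anchor Lrrc32 was higher (0.70) and none was lower. Both lists are small, and neither was tested against the shares of all measured genes. Tgfb2 (-0.58), Tgfb3 (-0.51) and Tgfb1 (0.38) did not pass the rule, and the median was -0.16.

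Tagln, an abundant transcript of smooth muscle, was listed with 0 control and 4 knockdown reads, although Acta2 had 15037 and 14908 reads. Nerve and glia markers, in whose basement membranes Lama2 and Lama4 take part, were higher for 6 of 7 genes (median 1.27), and mesothelium markers for 5 of 5 (median 1.43).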
